A study of Mus musculus with 15 samples.

Results

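Mitotic genes encode the machinery that condenses, aligns and parts the chromosomes when a cell divides. A list of 50 such genes was looked up by symbol in 2 tables of normalized expression from malignant splenic B-cells, and all 50 were present in both, among 16470 genes listed for vehicle (DMSO) and 16428 for ibrutinib, an inhibitor of Bruton tyrosine kinase. The cells came from tumor-burdened spleens of C57Bl/6 mice. One genotype, Eμ-TCL1 (TCL1 below), expresses the TCL1 oncogene from a transgene under a B-cell enhancer. The other, Eμ-TCL1;p53R172H/+ (p53mut below), carries the same transgene and in addition a heterozygous mutant Trp53 allele, the R172H change, in every cell of the animal. Mechanically disrupted cells were cultured for 24 h with DMSO or with 5 μM ibrutinib before total RNA was taken for sequencing. There were 3 TCL1 libraries (replicates 2, 3 and 4) and 5 p53mut libraries (replicates 1 to 5) in DMSO, and 3 TCL1 libraries (replicates 1, 3 and 4) and 4 p53mut libraries (replicates 1, 3, 4 and 5) in ibrutinib. The age of the mice and whether each library is a separate animal were not given in the sources used here, so the tests measure the spread between these libraries. Whether ibrutinib acts differently in malignant B-cells with and without an intact p53 pathway was the question of the design.

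Most of these genes are transcribed late in the cell cycle and are silent in resting cells, so their summed level in a population follows the share of cells that are about to divide. Entry into mitosis is driven by the kinase Cdk1 with its cyclins, the spindle checkpoint holds the cell until every kinetochore is attached, and the anaphase-promoting complex with Cdc20 then releases the chromosomes. Many of the promoters carry a cell cycle genes homology region (CHR), bound by MuvB complexes that repress in resting cells and, with B-Myb and Foxm1, activate in dividing cells, together with CCAAT boxes bound by NF-Y. The p53 target p21, encoded by Cdkn1a, acts on these promoters through the repressing complex. Chronic lymphocytic leukemia cells are mostly at rest in blood and divide in lymphoid tissue such as the spleen.

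The promoters are shown because shared control elements are a property of these genes that the choice of the list did not use. RefSeq promoter windows (GRCm38.p6, 250 bases before to 50 after the start) were matched by symbol for 42 of the 50 genes, with 44 windows in all. The CHR, searched as TTTGAA or TTCGAA on both strands, was found in 35 of the 44 windows (79.5%) and in 19.2% of all 32851 windows of the same length. The CCAAT box, searched as CCAAT on both strands, was found in 34 of the 44 (77.3%) and in 37.4% of all windows. Both were found in 31 (70.5%) and in 7.52% of all. A match to these letters is a description and not a site that was shown to be bound. For 7 genes that were to be named in any case, the 150 bases before the start are printed 5′ to 3′ on the strand of the gene, with CHR and CCAAT matches of either strand in capitals.
Mki67 (chr7:135716380-135716529, minus strand): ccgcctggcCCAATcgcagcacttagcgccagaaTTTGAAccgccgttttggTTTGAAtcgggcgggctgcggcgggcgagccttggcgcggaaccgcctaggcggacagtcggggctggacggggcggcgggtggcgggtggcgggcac
Top2a (chr11:99024190-99024339, minus strand): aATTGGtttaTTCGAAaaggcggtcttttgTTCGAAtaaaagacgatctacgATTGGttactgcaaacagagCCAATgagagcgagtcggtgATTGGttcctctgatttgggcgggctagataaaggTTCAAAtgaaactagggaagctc
Cdk1 (chr10:69352913-69353062, minus strand): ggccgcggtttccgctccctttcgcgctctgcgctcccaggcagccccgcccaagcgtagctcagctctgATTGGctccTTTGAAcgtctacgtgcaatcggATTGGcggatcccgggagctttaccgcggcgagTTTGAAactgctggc
Ccnb1 (chr13:100786487-100786636, minus strand): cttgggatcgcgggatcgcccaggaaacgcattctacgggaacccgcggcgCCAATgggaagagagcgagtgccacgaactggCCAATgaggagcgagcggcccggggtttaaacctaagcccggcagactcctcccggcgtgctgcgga
Plk1 (chr7:122159285-122159434, plus strand): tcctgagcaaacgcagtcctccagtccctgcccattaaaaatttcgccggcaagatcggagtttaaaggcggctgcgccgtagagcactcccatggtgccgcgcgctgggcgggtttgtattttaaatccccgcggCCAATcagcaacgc
Birc5 (chr11:117849087-117849236, plus strand): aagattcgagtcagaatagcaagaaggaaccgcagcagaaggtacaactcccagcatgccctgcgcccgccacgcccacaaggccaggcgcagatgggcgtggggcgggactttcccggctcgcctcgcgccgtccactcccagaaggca
Cdc20 (chr4:118437344-118437493, minus strand): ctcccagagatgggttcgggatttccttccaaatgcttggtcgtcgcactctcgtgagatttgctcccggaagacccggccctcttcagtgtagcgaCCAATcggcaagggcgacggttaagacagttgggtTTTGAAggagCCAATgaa

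Top2a held 3 CHR and 4 CCAAT matches in the printed bases, Mki67 held 2 CHR and 1 CCAAT, and Cdk1 held 2 of each. Cdc20 held 1 CHR and 2 CCAAT matches, and Ccnb1 held 2 CCAAT matches without a CHR. Plk1 held 1 CCAAT match, and its CHR match began 31 bases after the start, outside the printed stretch. Birc5 had no match to either motif in its window. The 33 genes with a CHR in a window had a median log2 change between genotypes of -1.46 in DMSO and -1.73 in ibrutinib, and the 9 genes whose windows had none had -1.31 and -1.48, which is given as a description without a test.

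Several libraries stood apart before genotype was considered. TCL1 replicate 2 in DMSO and TCL1 replicate 1 in ibrutinib were rich in myeloid and erythroid transcripts. Their Lyz2, a macrophage and granulocyte lysozyme, was 7931.4 and 5895.8, against 5.8 to 224.1 in the other 13 libraries. The 13 myeloid markers summed to 29749.4 and 21017.7 in them and to between 110.1 and 1273.5 elsewhere, and the 10 B-cell markers summed to 576.7 and 459.1. p53mut replicates 1 and 2 in DMSO and replicate 1 in ibrutinib were poor in B-cell markers (sums of 277.5, 273.1 and 67.1) and rich in T-cell markers (13 markers, sums of 3541.7, 4239 and 2462.6). In the other 5 DMSO libraries apart from these and the Lyz2-rich one, B-cell markers summed to between 3632.5 and 6209.1 and T-cell markers to between 173.1 and 599.3. In ibrutinib, p53mut replicates 3, 4 and 5 were intermediate, with B-cell sums of 551.8, 1529 and 1388 and T-cell sums of 1589.1, 794.9 and 1042.2, against B-cell sums of 3492.1 and 2713 in TCL1 replicates 3 and 4. No B-cell or T-cell marker was at 0 in any library. Xist exceeded Ddx3y, the Y-linked gene, in all 6 TCL1 libraries, whereas p53mut replicates 1, 2 and 4 in DMSO and 1, 3 and 4 in ibrutinib showed the reverse, and p53mut replicate 3 differed in this between the tables. In such bulk samples, fewer dividing cells and less RNA per dividing cell cannot be told apart.

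**Figure D1:**
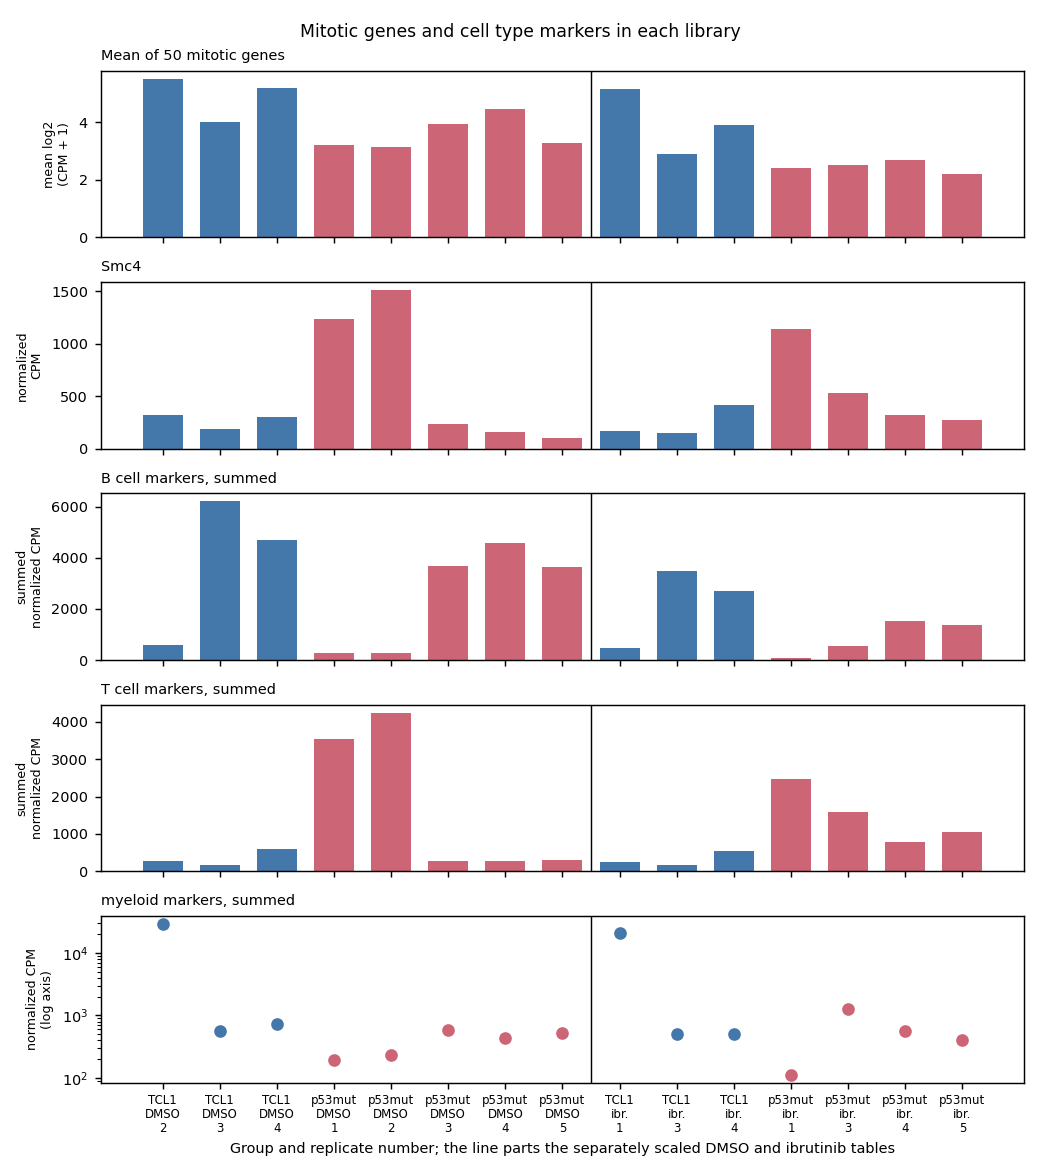
Mean level of the 50 mitotic genes (mean log2 of normalized CPM + 1), Smc4 (normalized CPM) and the summed B-cell, T-cell and myeloid markers (normalized CPM, the myeloid panel on a log axis) in each of the 15 libraries, TCL1 in blue and p53mut in red. The mean mitotic level was highest in TCL1 replicates 2 (5.52) and 4 (5.20) in DMSO and TCL1 replicate 1 (5.16) in ibrutinib, and Smc4 was highest in the 3 p53mut libraries with the highest T-cell sums.

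In DMSO, 49 of the 50 mitotic genes had a lower mean log2 level in p53mut than in TCL1, against 46.7% of all 16470 genes. The median log2 change of the 50 (p53mut minus TCL1, on log2 of the value plus 1) was -1.38, against 0.04 for all genes, and single genes ran from -1.94 (Aspm) to 0.50 (Smc4). With limma over the whole table, 34 of the 50 were lower in p53mut at an unadjusted p under 0.05 and none was higher, against a background of 4.65% lower and 3.52% higher. None reached an adjusted p under 0.05 (0 of 50, against 0.0121% of all genes), and the smallest adjusted p was 0.375, for Aspm. The groups did not overlap for 4 genes, Aspm, Ccnb2, Aurkb and Cenpf, or 8% of the 50, against 2.93% of all genes.

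The order of single libraries shows where this difference lay. TCL1 replicate 2, the Lyz2-rich library, had the highest value of the DMSO table for 38 of the 50 genes and TCL1 replicate 4 for 11. TCL1 replicate 3 was the lowest of the 3 TCL1 libraries for 48 genes and exceeded every p53mut library for only 6. Among p53mut, replicate 4 was the highest for 42 genes, while replicates 2, 5 and 1 were the lowest of the group, ties included, for 24, 13 and 12. The values of the 50 genes without Smc4 summed to 3476.3, 1211.1 and 2811.3 in TCL1 replicates 2, 3 and 4 and to 637.7, 652.8, 1076.4, 1543.1 and 635.4 in p53mut replicates 1 to 5. The p53mut library with the highest sum, replicate 4, therefore exceeded TCL1 replicate 3.

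Without TCL1 replicate 2, 49 genes were still lower on average in p53mut, against 46.3% of all genes (median -1.07, all genes 0.03), and 5 were lower at an unadjusted p under 0.05 (Ccnb2, Aurkb, Top2a, Aspm and Racgap1), or 10%, against 5.8% of all genes. Without p53mut replicates 1 and 2 instead, all 50 had a change below 0, against 51.7% of all genes (median -1.03, all genes -0.02), and 6 were lower at that threshold against 4.67%. With both kinds left out, 2 TCL1 and 3 p53mut libraries remained, the median was -0.73 against 0.00 for all genes, 47 genes were below 0 against 49.8% of all, and 1 gene, Racgap1, was lower at an unadjusted p under 0.05 against 8.71%. Foxm1, Bub1b and Cks2 were then above 0 by 0.09, 0.13 and 0.14. Among the libraries whose Xist exceeded Ddx3y, 3 of TCL1 and 2 of p53mut, the median was -1.37 and 15 genes were lower at that threshold, against 4.95% of all genes. This subset kept TCL1 replicate 2, the Lyz2-rich library, and left out p53mut replicate 4, the highest p53mut library for 42 genes. The direction was the same in each of these subsets for at least 47 genes, while the number past the threshold was not. The subsets overlap, since each kept TCL1 replicates 3 and 4 and p53mut replicates 3 and 5. Over the 50 genes the mean log2 level was 4.01 in TCL1 replicate 3 and 5.20 in TCL1 replicate 4. In p53mut it was 3.95 in replicate 3, 4.46 in replicate 4 and 3.28 in replicate 5.

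In ibrutinib, 49 of the 50 were again lower on average in p53mut, against 54.4% of all 16428 genes, and the median log2 change was -1.72, against -0.05 for all genes. At an unadjusted p under 0.05, 38 were lower and none higher, against 6.32% and 5.69% of all genes. No mitotic gene and no gene of the table had an adjusted p under 0.05, while 1039 genes of the table were lower and 934 higher at an unadjusted p under 0.05. The smallest adjusted p of a mitotic gene was 0.153, for Aspm. Here the groups did not overlap for 27 of the 50 (54%), all lower in p53mut, against 5.97% of all genes. TCL1 replicate 1, the Lyz2-rich library, was the highest of the table for 47 genes and p53mut replicate 5 the lowest, ties included, for 32, while TCL1 replicate 3 was the lowest TCL1 library for 48 and exceeded every p53mut library for 27.

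Without TCL1 replicate 1, 27 genes were lower at an unadjusted p under 0.05 (54%, background 9.87%), the median was -1.02 (all genes 0.00) and 47 were below 0, against 50.3% of all genes. Without p53mut replicate 1, the counts were 29 (background 4.77%) and a median of -1.67. With both left out, 20 were lower at that threshold (40%, background 10.3%), the median was -1.06 and 47 were below 0, against 51.3% of all genes. The groups were then free of overlap for 29 of the 50, against 18.7% of all genes. The 3 p53mut libraries that remained still had less B-cell and more T-cell marker signal than TCL1 replicates 3 and 4, as given above, and the part of this in the lower mitotic levels was not tested. Kif22, Mad2l1 and Smc4 were the 3 genes above 0.

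**Figure D2:**
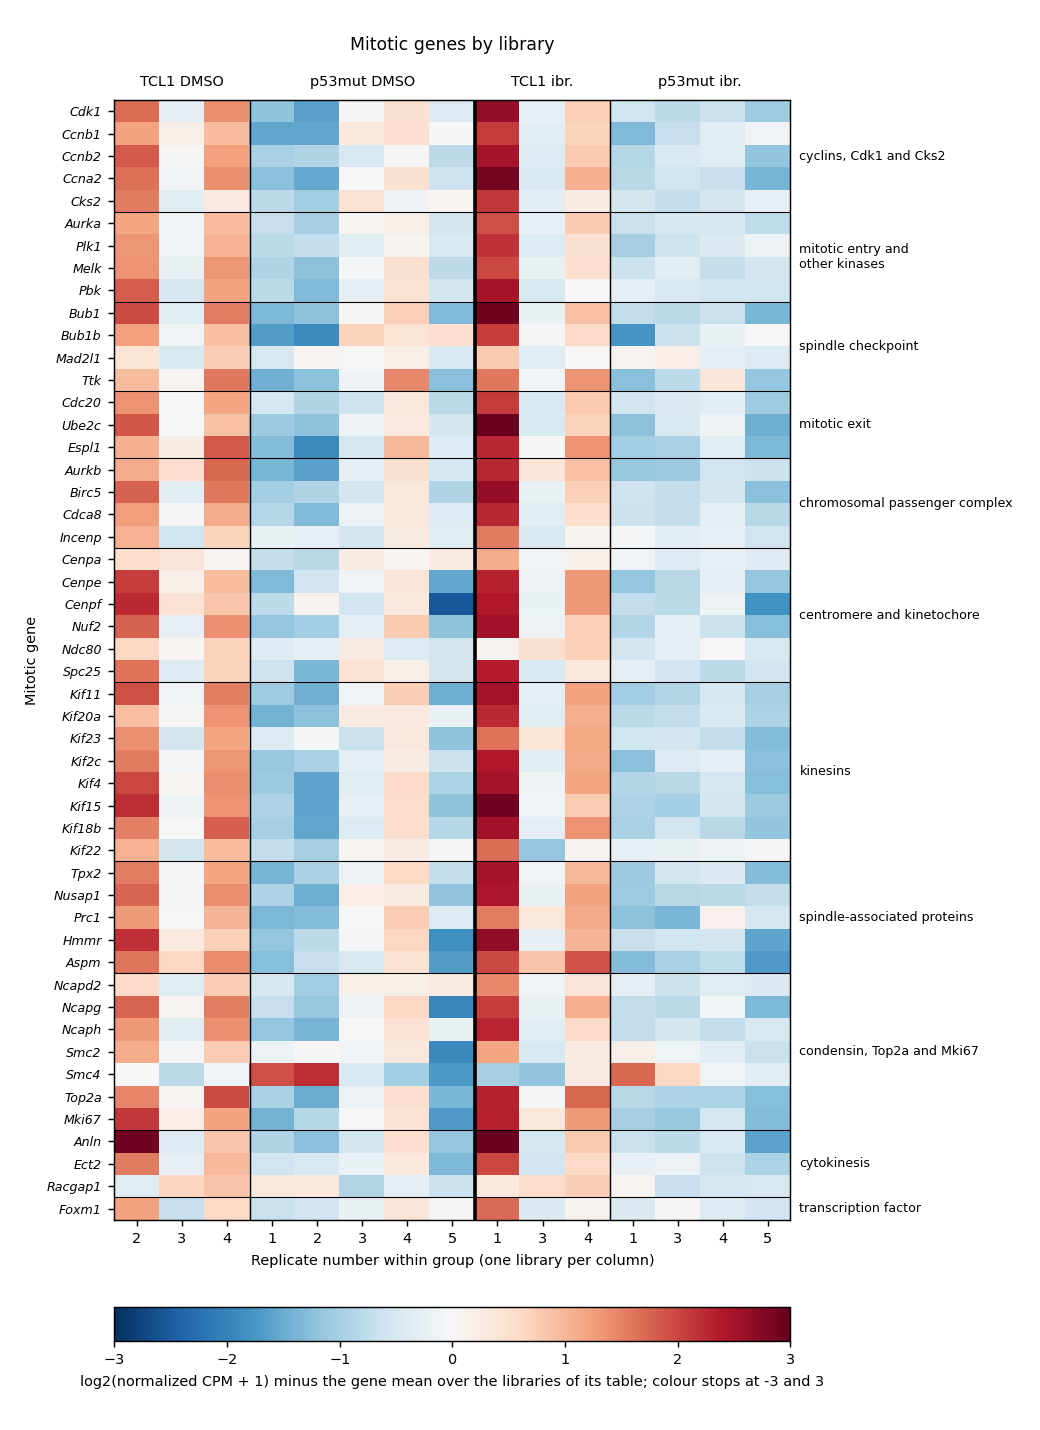
Each row is 1 of the 50 mitotic genes, grouped by role, and each column 1 library, with the colour giving log2(normalized CPM + 1) minus the gene's mean over the libraries of its table. TCL1 replicates 2 and 4 in DMSO and 1 and 4 in ibrutinib are red in most rows, TCL1 replicate 3 is pale in most, and Smc4 runs against the rest in p53mut replicates 1 and 2 in DMSO and replicate 1 in ibrutinib.

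**Figure D3:**
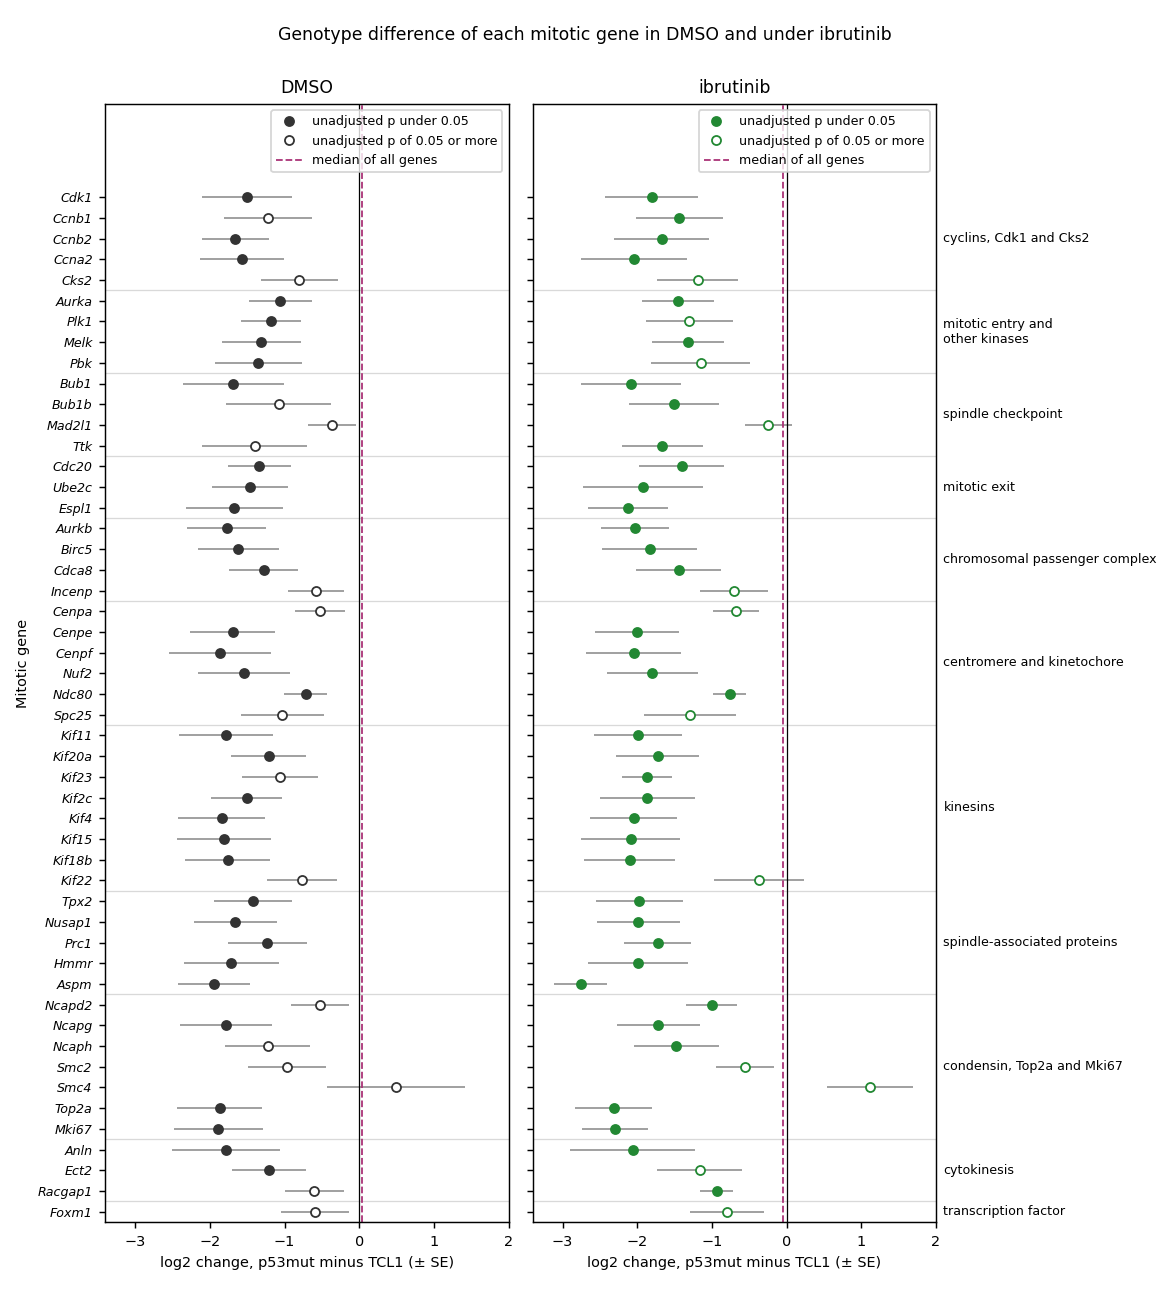
Log2 change of each mitotic gene, p53mut minus TCL1, with its SE from limma, in DMSO (3 against 5 libraries) and ibrutinib (3 against 4). In each panel 49 genes lie below 0 and Smc4 above it, filled points mark an unadjusted p under 0.05 (34 in DMSO, 38 in ibrutinib), and the dashed line is the median of all genes.

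Cyclins, Cdk1 and its subunit Cks2 were lower in p53mut for all 5 members by mean, 3 of them at an unadjusted p under 0.05 in DMSO and 4 in ibrutinib, with list medians of -1.50 and -1.67. Left without the Lyz2-rich library, the tables had 1 and 2 past that threshold, with DMSO first here and in the counts of this kind that follow. Single values are in normalized CPM and in the order of the replicate numbers given above, with TCL1 before p53mut. Cdk1, the kinase that starts mitosis, read 42.4, 10.3 and 34.4 in TCL1 and 4.9, 3.4, 12, 17.9 and 9.2 in p53mut in DMSO. TCL1 replicate 3 lay below p53mut replicates 3 and 4, so the groups overlapped (log2 change -1.50, SE 0.60, adjusted p = 0.592, exact permutation p = 0.0536). In ibrutinib Cdk1 read 32.8, 3.6 and 8 in TCL1 and 2.6, 2.2, 2.5 and 1.6 in p53mut. All 4 p53mut values were then under the lowest TCL1 value, with a 6.65-fold ratio of means (log2 change -1.81, SE 0.62, adjusted p = 0.346, exact permutation p = 0.0286). Ccnb1, the B-type cyclin that activates Cdk1, read 14.5, 6.6 and 11.7 in TCL1 and 1.3, 1.3, 7.4, 8.6 and 5.6 in p53mut in DMSO, the lowest in the 2 T-cell-rich libraries (log2 change -1.22, SE 0.59, adjusted p = 0.633). Its ibrutinib values were 13, 1.6 and 4.2 and 0.3, 1, 1.6 and 2, which overlapped at TCL1 replicate 3 (log2 change -1.44, SE 0.58, adjusted p = 0.396). Ccnb2, the second B-type cyclin, gave 35, 9.3 and 22.4 in TCL1 and 4.1, 4.4, 6.2, 9.2 and 4.8 in p53mut in DMSO. These groups did not overlap, but TCL1 replicate 3 and p53mut replicate 4 nearly met, so the 3.87-fold ratio of means came mainly from TCL1 replicates 2 and 4 (log2 change -1.66, SE 0.44, adjusted p = 0.401, exact permutation p = 0.0179, the smallest 3 against 5 can give).

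The mitotic entry and other kinases, Aurka, Plk1, Melk and Pbk, were all 4 lower in p53mut at an unadjusted p under 0.05 in DMSO (median -1.25) and 2 of 4 in ibrutinib (median -1.31), and 0 and 2 of 4 without the Lyz2-rich library. Plk1, the kinase of centrosome maturation and mitotic entry, read 16.8, 5.5 and 13.6 in TCL1 and 3.1, 3.3, 4.6, 6.7 and 4.2 in p53mut in DMSO. Only p53mut replicate 4 exceeded TCL1 replicate 3 (log2 change -1.18, SE 0.40, adjusted p = 0.543, exact permutation p = 0.0357). In ibrutinib Plk1 read 20.3, 2.6 and 5.6 and 1.4, 2.1, 2.5 and 3.2. The high TCL1 mean came mostly from replicate 1, without which its log2 change was -0.59 instead of -1.30. Aurka, the kinase of spindle poles, had the lowest p of this group in ibrutinib, where it read 16.6, 2.9 and 7 in TCL1 and 1.9, 2.2, 2.2 and 1.7 in p53mut without overlap (log2 change -1.45, SE 0.48, adjusted p = 0.335, exact permutation p = 0.0286).

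Of the spindle checkpoint genes Bub1, Bub1b, Mad2l1 and Ttk, 1 passed the unadjusted threshold in DMSO and 3 in ibrutinib, all lower in p53mut, and 0 and 1 without the Lyz2-rich library. Bub1, a kinase that recruits checkpoint proteins to the kinetochore, read 35.8, 6.5 and 26.3 in TCL1 and 2.7, 3, 8.7, 14.5 and 2.8 in p53mut in DMSO, where TCL1 replicate 3 lay under 2 p53mut libraries (log2 change -1.68, SE 0.68, adjusted p = 0.592). In ibrutinib it read 26.1, 2.2 and 5.7 and 1.2, 1.1, 1.3 and 0.4, an 11.3-fold ratio of means without overlap (log2 change -2.09, SE 0.67, adjusted p = 0.33, exact permutation p = 0.0286). The ratio rests on the 26.1 of replicate 1, and the log2 change without it was -1.24. Mad2l1, which encodes the checkpoint inhibitor of Cdc20, was among the least different, with 32.7, 17.5 and 41.2 in TCL1 and 17.3, 25.3, 24.7, 27.6 and 17.6 in p53mut in DMSO (log2 change -0.36, SE 0.32, adjusted p = 0.7). Its ibrutinib values of 25.1, 10.9 and 14.3 and 15.2, 16.6, 11.4 and 10.4 overlapped (log2 change -0.25, SE 0.31, adjusted p = 0.738), and the sign turned to 0.07 without TCL1 replicate 1.

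All 3 mitotic exit genes, Cdc20, Ube2c and Espl1, were lower in p53mut at an unadjusted p under 0.05 in both tables (medians -1.46 and -1.92), but 0 and 1 of 3 without the Lyz2-rich library of each. Cdc20, the activator of the anaphase-promoting complex, read 28.7, 10.5 and 25.5 in TCL1 and 7.1, 5.2, 6.6, 13.8 and 5.7 in p53mut in DMSO. p53mut replicate 4 was the one library that reached into the TCL1 range (log2 change -1.34, SE 0.42, adjusted p = 0.505, exact permutation p = 0.0357). In ibrutinib it read 27.5, 3.8 and 10.5 and 3.5, 3.9, 4.3 and 2.2, and TCL1 replicate 3 fell among the p53mut values (log2 change -1.40, SE 0.57, adjusted p = 0.396, exact permutation p = 0.0857). Espl1, encoding separase, the protease that opens cohesin, had the lowest p of this group in ibrutinib, with 28.2, 5.2 and 14.5 in TCL1 and 2, 2.1, 3.9 and 1.4 in p53mut. The groups did not overlap (log2 change -2.12, SE 0.53, adjusted p = 0.246, exact permutation p = 0.0286), and the log2 change was -1.56 without TCL1 replicate 1 and p53mut replicate 1.

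The chromosomal passenger complex, Aurkb with Birc5, Cdca8 and Incenp, corrects faulty kinetochore attachments, and 3 of its 4 genes were lower at an unadjusted p under 0.05 in each table (medians -1.45 and -1.64), and 1 and 2 of 4 without the Lyz2-rich library. Aurkb, its kinase, read 20.3, 13 and 31.6 in TCL1 and 2.8, 2.2, 7.1, 12.8 and 5.9 in p53mut in DMSO. The groups were narrowly apart, between TCL1 replicate 3 and p53mut replicate 4 (log2 change -1.78, SE 0.53, adjusted p = 0.482, exact permutation p = 0.0179). In ibrutinib Aurkb read 24.4, 5.8 and 8.7 and 1.4, 1.5, 2.5 and 2.4, a 6.65-fold ratio of means (log2 change -2.03, SE 0.46, adjusted p = 0.222, exact permutation p = 0.0286). Without the Lyz2-rich library its log2 change was -1.78 in DMSO and -1.48 in ibrutinib, with no overlap in either table. Birc5, encoding survivin, read 30.9, 6.5 and 27 in TCL1 and 3.6, 4, 5.4, 10.8 and 4 in p53mut in DMSO (log2 change -1.62, SE 0.54, adjusted p = 0.543, exact permutation p = 0.0357). Its ibrutinib values were 25.8, 2.7 and 6 and 1.8, 1.6, 1.9 and 0.8 (log2 change -1.83, SE 0.63, adjusted p = 0.346). TCL1 replicate 3 was low for Birc5 in both tables, at 6.5 and 2.7, and the log2 change without the Lyz2-rich library was -1.24 and -1.04.

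Of the 6 centromere and kinetochore genes, 4 were lower in p53mut at an unadjusted p under 0.05 in each table (medians -1.28 and -1.55), and 0 and 3 of 6 without the Lyz2-rich library. Cenpe, a kinetochore motor, had the lowest p in both, and read 99.7, 25.2 and 45.1 in TCL1 and 8.5, 14.9, 21, 30 and 7.1 in p53mut in DMSO (log2 change -1.70, SE 0.56, adjusted p = 0.535, exact permutation p = 0.0357). In ibrutinib Cenpe read 54.8, 9.1 and 27 and 4.1, 5.4, 8.2 and 4.1 (log2 change -2.00, SE 0.56, adjusted p = 0.288, exact permutation p = 0.0286). Only p53mut replicate 4 in DMSO reached above TCL1 replicate 3. Cenpf, chosen here after its values were seen because its DMSO groups did not overlap, read 100.1, 28.2 and 37.2 in TCL1 and 11.4, 22.1, 13.5, 25.7 and 2.7 in p53mut. Cenpa, the histone variant that marks the centromere, and Ndc80, a microtubule-binding kinetochore subunit, varied less, from 12.3 to 32.9 and from 10.4 to 25.8 over the 8 DMSO libraries.

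The kinesins are motors that build the spindle and carry the chromosomes, and 6 of 8 were lower in p53mut at an unadjusted p under 0.05 in DMSO and 7 of 8 in ibrutinib (medians -1.63 and -1.93), and 0 and 6 of 8 without the Lyz2-rich library. Kif2c, which depolymerizes microtubules at the centromere, had the lowest p in DMSO and read 21.3, 6.2 and 17.7 in TCL1 and 2.4, 2.8, 5.2, 7.8 and 3.8 in p53mut (log2 change -1.51, SE 0.48, adjusted p = 0.505, exact permutation p = 0.0357). p53mut replicate 4 exceeded TCL1 replicate 3, and the other 4 p53mut libraries lay below all of TCL1. Kif23, a motor of the central spindle, led in ibrutinib with 36.4, 15.2 and 26 in TCL1 and 7, 7.2, 6.3 and 3.9 in p53mut, with no overlap and a 4.24-fold ratio of means (log2 change -1.87, SE 0.34, adjusted p = 0.165, exact permutation p = 0.0286). It kept a log2 change of -1.65 without TCL1 replicate 1 and p53mut replicate 1. Kif22, which pushes chromosome arms, read 19.6, 1.9 and 5.9 and 4.4, 4.6, 4.8 and 5.3 in ibrutinib, where TCL1 replicate 3 was the lowest of the table (log2 change -0.37, SE 0.60, adjusted p = 0.799). Without TCL1 replicate 1 its change was 0.37.

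The spindle-associated proteins, Tpx2, Nusap1, Prc1, Hmmr and Aspm, were, like the mitotic exit genes, all lower in p53mut at an unadjusted p under 0.05 in both tables (medians -1.66 and -1.99). In DMSO 1 of 5 was past that threshold without the Lyz2-rich library and 0 without both kinds of library, and in ibrutinib 5 and 4 were. Aspm, a spindle pole protein, had the lowest p and the largest change of the 50 genes in both tables. In DMSO it read 88.9, 43.8 and 77 in TCL1 and 11.1, 17.2, 20.5, 39.1 and 8.2 in p53mut, with means of 69.9 ± 23.4 (SD, n = 3) and 19.2 ± 12.1 (SD, n = 5). No p53mut library reached the TCL1 range (log2 change -1.94, SE 0.48, adjusted p = 0.375, exact permutation p = 0.0179). In ibrutinib the values were 51, 23.1 and 48.2 in TCL1 and 4.4, 5.7, 6.8 and 3.1 in p53mut, with means of 40.8 ± 15.4 (SD, n = 3) and 5 ± 1.6 (SD, n = 4). The ratio of means was 8.15-fold and the gap between the groups, 6.8 to 23.1, was wider than the p53mut range (log2 change -2.76, SE 0.35, adjusted p = 0.153, exact permutation p = 0.0286, the smallest 3 against 4 can give). Without both kinds of library the log2 change of Aspm by limma was -1.57 in DMSO (SE 0.70, adjusted p = 0.35). In ibrutinib it was then -2.52 (SE 0.43, adjusted p = 0.108). The part of cell composition in these changes was not tested.

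The condensin subunits Ncapd2, Ncapg, Ncaph, Smc2 and Smc4 pack chromosomes, Top2a untangles DNA, and Mki67 coats mitotic chromosomes and encodes the proliferation marker Ki-67. Of these 7 genes, 3 were lower in p53mut at an unadjusted p under 0.05 in DMSO and 5 in ibrutinib, and 1 and 4 without the Lyz2-rich library. Mki67 read 895.4, 234.4 and 468.3 in TCL1 and 75, 111.1, 205.8, 276.9 and 61.9 in p53mut in DMSO, and only p53mut replicate 4 exceeded TCL1 replicate 3 (log2 change -1.89, SE 0.60, adjusted p = 0.505, exact permutation p = 0.0357). In ibrutinib it read 533.7, 134.5 and 257.1 and 52.9, 47.8, 72.8 and 42.4, without overlap and with a 5.71-fold ratio of means (log2 change -2.30, SE 0.44, adjusted p = 0.191, exact permutation p = 0.0286). Top2a read 392.9, 150.5 and 552 in TCL1 and 72.4, 49.7, 126.1, 200.8 and 54.4 in p53mut in DMSO, with the highest value in TCL1 replicate 4 rather than in the Lyz2-rich library (log2 change -1.87, SE 0.57, adjusted p = 0.493, exact permutation p = 0.0357). In ibrutinib Top2a read 236.8, 45.5 and 156.8 and 26.1, 24.5, 24.1 and 18.7 (log2 change -2.32, SE 0.51, adjusted p = 0.222, exact permutation p = 0.0286), and its 4 p53mut values lay close together. Ncapd2, a condensin subunit, was among the least different in DMSO with 98.2, 50.6 and 111.9 and 45, 31.4, 74, 73.5 and 77.8 (log2 change -0.52, SE 0.39, adjusted p = 0.66), and Smc2, a condensin ATPase, in ibrutinib with 61.5, 19.1 and 31.7 and 30.3, 24.3, 21 and 16.3 (log2 change -0.56, SE 0.39, adjusted p = 0.573).

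Smc4, the ATPase partner of Smc2, was the exception and the one gene with a higher mean log2 level in p53mut in both tables. In DMSO it read 319, 183.8 and 299 in TCL1 and 1229.8, 1510.8, 233.8, 156.3 and 97.3 in p53mut. Replicates 1 and 2 of p53mut were thus several times above every other DMSO library, and replicates 4 and 5 were below every TCL1 library (log2 change 0.50, SE 0.93, adjusted p = 0.861, exact permutation p = 0.446). Smc4 alone made up 65.9% and 69.8% of the summed mitotic values in those 2 libraries, against 8.4% to 17.8% in the other 6. In ibrutinib it read 172.1, 151.3 and 411.6 in TCL1 and 1139.3, 526.1, 316.6 and 277.8 in p53mut, highest in the library with the highest T-cell marker sum (log2 change 1.12, SE 0.57, adjusted p = 0.475, exact permutation p = 0.229). Without the p53mut libraries poor in B-cell markers the log2 change was -0.76 in DMSO and 0.70 in ibrutinib. The gene spans Mir15b and Mir16-2 on the same strand without sharing exon bases, and its partner Smc2 read 43.3 and 49.4 in the 2 libraries with the highest Smc4.

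Among the cytokinesis genes Anln, Ect2 and Racgap1, 2 of 3 were lower in p53mut at an unadjusted p under 0.05 in each table, and 1 and 1 without the Lyz2-rich library. Anln, which organizes the contractile ring, had the highest ratio of the highest to the lowest TCL1 value in DMSO, with 79.9, 7.3 and 18.1 in TCL1 and 4.8, 3.5, 6.4, 14.4 and 3.8 in p53mut (log2 change -1.79, SE 0.72, adjusted p = 0.592, exact permutation p = 0.0357). The 5.33-fold ratio of means came mainly from the Lyz2-rich library, and the log2 change without it was -0.89. Racgap1, a component of the central spindle, had another pattern, with 58.2, 118.2 and 138.4 in TCL1 and 96.4, 94.9, 41, 61.9 and 48.2 in p53mut in DMSO. Here the Lyz2-rich library was the lowest of TCL1 and the T-cell-rich libraries the highest of p53mut. The groups overlapped with all 8 libraries (log2 change -0.60, SE 0.39, adjusted p = 0.645). They were apart without the Lyz2-rich library alone (log2 change -0.97) and without those 3 (log2 change -1.35). Without only the T-cell-rich libraries they still overlapped (log2 change -0.97). In ibrutinib Racgap1 read 58.9, 70.2 and 79.2 and 49.8, 28.7, 33 and 33.8 without overlap (log2 change -0.94, SE 0.22, adjusted p = 0.233, exact permutation p = 0.0286).

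Foxm1, the transcription factor that drives many of the other 49 genes, did not differ beyond the spread. It read 28.9, 7.1 and 18.7 in TCL1 and 7.2, 7.7, 10.3, 15.9 and 11.7 in p53mut in DMSO (log2 change -0.59, SE 0.45, adjusted p = 0.662, exact permutation p = 0.214). Its ibrutinib values were 27.2, 5.4 and 8.2 and 5.4, 7.8, 5.5 and 4.8 (log2 change -0.80, SE 0.50, adjusted p = 0.542, exact permutation p = 0.114). TCL1 replicate 3 was below all p53mut values in DMSO and within their range in ibrutinib, and without both kinds of library the log2 change was 0.09 in DMSO and -0.15 in ibrutinib. Cdkn1a, the gene of the p53 target p21 and not one of the 50, read 23.8, 2.8 and 10.4 in TCL1 and 1.2, 1.2, 3.9, 14.8 and 7.9 in p53mut in DMSO (log2 change -1.02, SE 0.83, adjusted p = 0.68). In ibrutinib it read 21.4, 7.3 and 6 and 0.6, 5.7, 15 and 3.5 (log2 change -1.05, SE 0.79, adjusted p = 0.588). Its highest value in each table was in the Lyz2-rich TCL1 library, which also held the highest mitotic level.

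**Figure D4:**
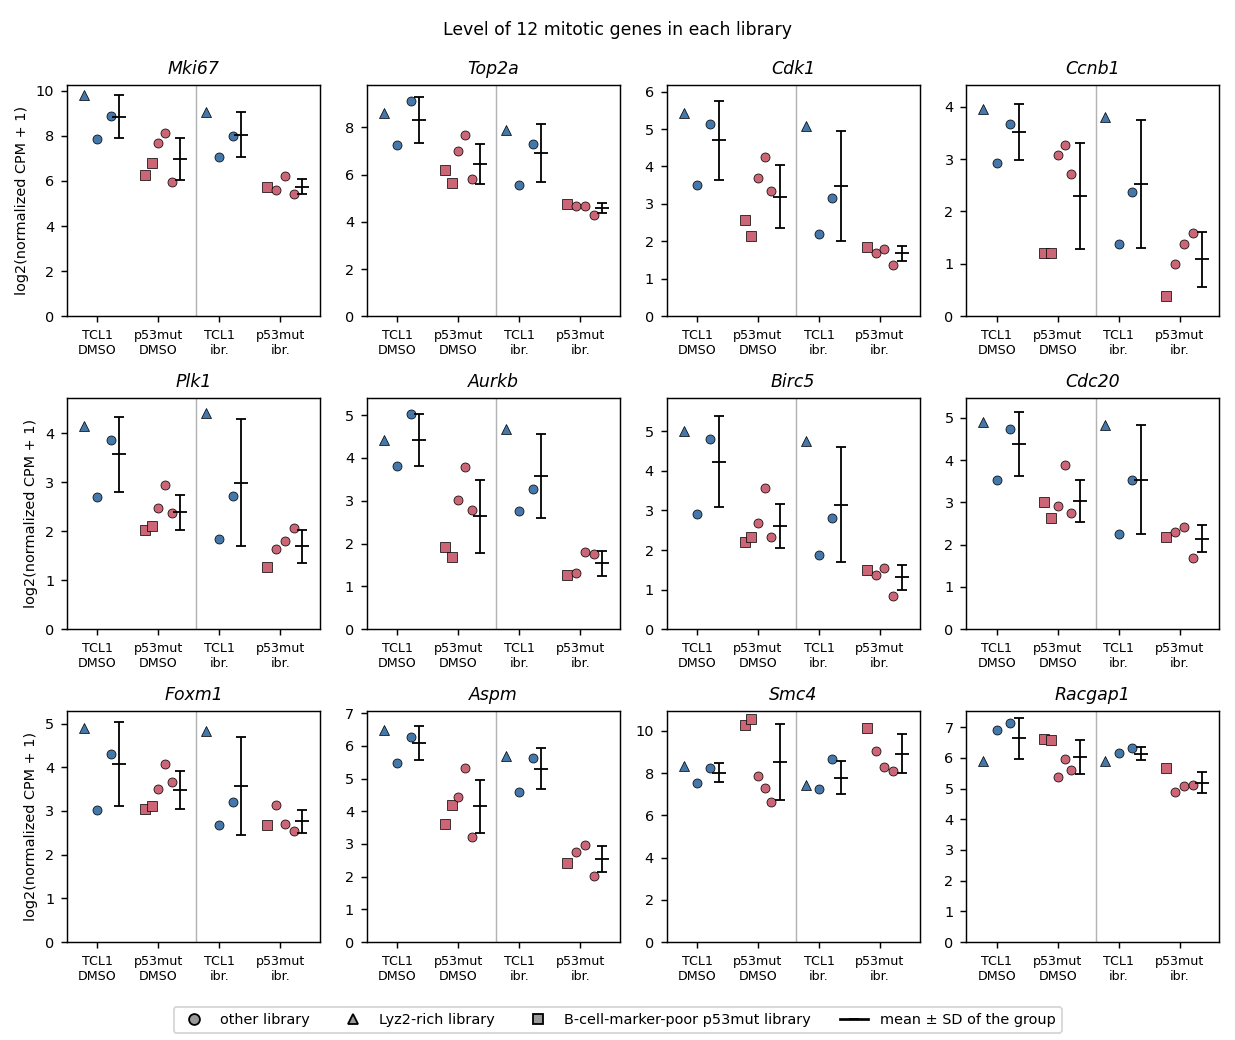
Log2(normalized CPM + 1) of 12 mitotic genes in each library by group, with the group mean and SD as bars, triangles for the Lyz2-rich libraries and squares for the p53mut libraries poor in B-cell markers. Ibrutinib values of Mki67, Top2a, Cdk1, Aurkb, Birc5 and Aspm in p53mut lie below every TCL1 value, while Foxm1 overlaps and Smc4 is highest in the squares.

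**Figure D5:**
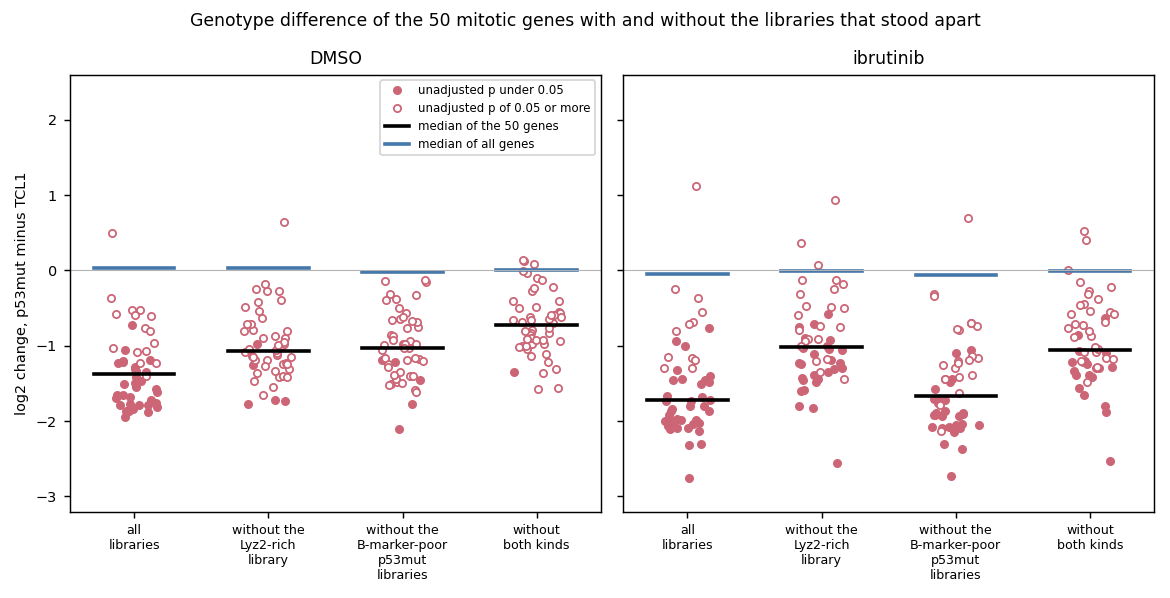
Log2 change of each of the 50 mitotic genes, p53mut minus TCL1, with all libraries and without the libraries that stood apart, for DMSO and ibrutinib. The black line, the median of the 50, moved from -1.38 to -0.73 in DMSO and from -1.72 to -1.06 in ibrutinib, while the blue median of all genes stayed near 0.

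Whether the genotype difference itself differed between DMSO and ibrutinib was tested as an interaction over all 15 libraries and 15869 genes. None of the 50 genes passed at an adjusted p under 0.05, nor did any gene of the series, and at an unadjusted p under 0.05 none of the 50 was lower or higher, against 0.347% and 0.176% of all genes. The median interaction of the 50 was -0.27 (all genes -0.07), 43 were below 0 against 59.1% of all genes, and values ran from -0.82 to 0.62. For the leading genes it was -0.82 (SE 0.64) for Aspm, -0.42 (SE 0.81) for Mki67 and -0.45 (SE 0.82) for Top2a. Apart from Aspm, the standard errors exceed these values. This fit took the 15 libraries as independent, although deviations of libraries with the same genotype and replicate number correlated between treatments at 0.71 to 0.84 in 5 of 6 pairs. With genotype and replicate number as a block, the median was -0.11 (all genes -0.03), and the smallest adjusted p of a mitotic gene was 0.871. The sign of the median also turned with single libraries, to 0.43 without TCL1 replicate 1 in ibrutinib and to 0.20 without TCL1 replicate 3 in DMSO.

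Levels in ibrutinib and DMSO were set side by side without a test, because each table was scaled on its own. In TCL1 the mean log2 level of 49 of the 50 genes was lower in ibrutinib (73.1% of all genes), with a median difference of -0.98 against -0.21 for all genes. In p53mut it was lower for 48 of 50 (69.5% of all genes), with a median of -1.24 against -0.28. The groups did not overlap for 27 genes in p53mut, against 18.6% of all genes, and for none of the 50 in TCL1, against 12.3%. Without the Lyz2-rich libraries, 2 against 2 TCL1 libraries were free of overlap for 32 of the 50 genes (64%), against 41.5% of all genes, and the median difference was -1.32. Ndc80 was the member with no lower mean in either genotype, at 22.3 in DMSO and 24.3 in ibrutinib in TCL1 and 13.2 and 13.9 in p53mut. Top2a had means of 365.1 and 146.4 in TCL1 and 100.7 and 23.4 in p53mut, and Mki67 had 532.7 and 308.4 in TCL1 and 146.1 and 54.0 in p53mut. Between libraries of the same genotype and replicate number, from 47 to 49 of the 50 genes were lower in ibrutinib in each of the 6 pairs, against 60.9% to 82.6% of all genes. In one of these pairs, p53mut replicate 3, the libraries differed in Xist and Ddx3y and their deviations correlated at -0.10. TCL1 replicate 2 in DMSO and replicate 1 in ibrutinib, the libraries most alike across the tables (r = 0.991 across genes), have different numbers and are not among the pairs. B-cell marker sums were also lower in ibrutinib in each of the 6 same-numbered pairs. They went from 6209.1 to 3492.1 in TCL1 replicate 3 and from 4700.7 to 2713 in TCL1 replicate 4. T-cell marker sums were higher in ibrutinib in p53mut replicates 3, 4 and 5 and lower in the other pairs. The part of these markers in the differences of the mitotic genes was not tested.

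Other genes of division were taken from lists of the same pathway, 163 of 164 of which were found in at least one table. Over all genes, 4.65% were lower and 3.52% higher in p53mut at an unadjusted p under 0.05 in DMSO, and 6.32% and 5.69% in ibrutinib. Without the Lyz2-rich library of each table, 5.8% of all genes were lower in DMSO and 9.87% in ibrutinib. Of 32 further kinetochore and centromere genes, 7 were lower and none higher in p53mut at an unadjusted p under 0.05 in DMSO (median -0.61), and 8 were lower and 1 higher in ibrutinib (median -0.55), while 0 and 5 were lower without the Lyz2-rich library. The medians were then -0.37 and -0.10, with 24 and 19 of the 32 below 0, against 46.3% and 50.3% of all genes. Spc24, a partner of Ndc80, had 7.97 ± 3.08 (SD, n = 3) in TCL1 and 2.82 ± 1.74 (SD, n = 5) in p53mut (log2 change -1.28, SE 0.45, adjusted p = 0.55) in DMSO. Of 23 further kinesin and spindle genes, 6 were lower and 1 higher in DMSO and 8 lower and 1 higher in ibrutinib, while 0 and 4 were lower without that library. The one higher in DMSO was Numa1, a spindle pole protein that is also part of the interphase nucleus, at 241, 297.2 and 269.6 in TCL1 and 612.6, 582.8, 371.7, 378.6 and 494.3 in p53mut, without overlap. Of 15 further mitotic entry regulators, 4 were lower and 1 higher in DMSO and 7 lower and 1 higher in ibrutinib, while 0 and 5 were lower without it. Pttg1, encoding the separase inhibitor securin, was higher in p53mut in ibrutinib, with 10.9 ± 1.21 (SD, n = 3) in TCL1 and 19.9 ± 3.73 (SD, n = 4) in p53mut (log2 change 0.81, SE 0.20, adjusted p = 0.246), and its DMSO values were 13.9, 11 and 9.8 in TCL1 and 28.5, 35.6, 15.5, 14.2 and 17.6 in p53mut. It was highest in both tables in the T-cell-rich libraries.

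The 14 subunits and activators of the anaphase-promoting complex, which cells hold through the cell cycle, showed none lower or higher at an unadjusted p under 0.05 in either table (medians 0.07 and -0.08). Of 12 cohesin genes, 1 was lower in DMSO and none in ibrutinib, and it was Esco2, an acetyltransferase used in S phase, with 15.9 ± 13.2 (SD, n = 3) in TCL1 and 3.62 ± 2.43 (SD, n = 5) in p53mut (log2 change -1.66, SE 0.67, adjusted p = 0.592). The 3 condensin II genes had none past the threshold, and of 9 further cytokinesis genes 1 was lower in each table, Shcbp1. Without the Lyz2-rich library 1 condensin II gene was lower in each table, against 5.8% and 9.87% of all genes. The counts were then 0 and 1 for the cohesin genes and 0 and 1 for these cytokinesis genes. Without both kinds of library 2 condensin II genes were lower in DMSO and 1 in ibrutinib, against 8.71% and 10.3% of all genes. Among 19 MuvB, DREAM and E2F genes, 1 was lower in DMSO and 2 in ibrutinib, with medians of 0.02 and -0.25. Without the Lyz2-rich library 1 and 4 were lower. Without both kinds of library 1 was lower and 1 higher in DMSO, and 5 were lower in ibrutinib. E2f2, an activating E2F, stood out at 182.9, 91.8 and 175.9 in TCL1 and 32.3, 20.1, 34.9, 39.3 and 41.6 in p53mut in DMSO and at 170.5, 46.4 and 66.3 and 16.7, 12, 13.4 and 11.9 in ibrutinib. The groups did not overlap in either table, and the log2 change was -2.10 (SE 0.32, adjusted p = 0.102) and -2.51 (SE 0.42, adjusted p = 0.165). Of 28 genes of the start of DNA replication, 5 were lower in DMSO and 2 in ibrutinib (medians -0.66 and -0.44), which in ibrutinib is near the share over all genes. Without the Lyz2-rich library 1 and 3 were lower, against 5.8% and 9.87% of all genes, and the median in ibrutinib was -0.02. Tk1, the thymidine kinase of that list, read 15.2, 22.4 and 44.8 in TCL1 and 3.1, 3.1, 2.8, 10.7 and 3.3 in p53mut in DMSO and 14.8, 30.3 and 19.4 and 1.4, 1.5, 2.7 and 0.7 in ibrutinib, with log2 changes of -2.36 (SE 0.49, adjusted p = 0.285) and -3.12 (SE 0.35, adjusted p = 0.104). Of the CDK inhibitors, 7 in DMSO and 8 in ibrutinib were listed, and Cdkn2b, an inhibitor of the G1 kinases, was higher in p53mut in DMSO at an unadjusted p under 0.05, with 2, 8.3 and 5.3 in TCL1 and 10.1, 8, 39.4, 13.1 and 47.8 in p53mut. Cdkn3, a phosphatase that acts on Cdk1 and Cdk2, was lower at the same threshold, with 6.6 ± 5.36 (SD, n = 3) in TCL1 and 1.74 ± 1.1 (SD, n = 5) in p53mut (log2 change -1.30, SE 0.49, adjusted p = 0.568), and neither was past it without the Lyz2-rich library. Without both kinds of library 1 CDK inhibitor was again higher in DMSO at that threshold. The log2 change of Cdkn2b was then 1.98, against 1.80 with all libraries. In ibrutinib no CDK inhibitor was past that threshold. Cdkn2b there read 1.9, 24.1 and 12.6 in TCL1 and 10.4, 6.6, 8.6 and 11.9 in p53mut, which overlapped.

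For 14 of the 50 genes an exon shares bases with another annotated gene in GENCODE M21, on the opposite strand for 11 and on the same strand for 3. Among them are Plk1, Cdc20, Top2a, Kif22, Ncapd2 and Foxm1. Whether the counting used strand was not given in the sources used here. The values do not show how reads in the shared bases were assigned, so values of these genes are uncertain to that extent. The lowest mitotic value was 0.4 in DMSO and 0.2 in ibrutinib, and none was at 0. Values were given to 0.1, so the lowest genes, such as Pbk in ibrutinib with 0.5, 0.3, 0.2 and 0.2 in p53mut, are known only coarsely.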

How the data were processed

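Total RNA of 15 cultures was sequenced, and 2 tables, 1 per treatment, were deposited. According to the study's methods and the submitters' processing notes, reads were aligned to GRCm38 with TopHat2 (2.0.12), handled with SAMtools (0.1.19), counted with HTSeq against GENCODE annotation and normalized with edgeR, and genes under 0.5 CPM were removed. The deposited values are normalized CPM, an expression signal scaled by the authors within each table and rounded to 0.1, with column sums from 756625.4 to 1359649.7. Read counts were not recoverable from them, and with the depth unknown the text has no intervals for counting error. No column was left unmapped.

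Libraries were grouped by their labels. Genotypes were compared within each table with limma (3.58.1, R 4.3.3, trend) on log2(value + 1), which understates the change of low genes, with Benjamini-Hochberg adjustment over all genes, and the interaction was fitted over all libraries and the genes of both tables. Folds are ratios of group means. Exact two-sided permutation tests of single values can reach p = 0.0179 for 3 against 5 and 0.0286 for 3 against 4. The fit was tested on simulated data.

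Genes were named by role: the member with the lowest p in each, 9 fixed genes and Cdkn1a, the 3 largest and 3 smallest changes in each table, and members higher in p53mut. The members, lists and rules were chosen with earlier results of these data known. Positions came from GENCODE M21 and promoters from RefSeq GRCm38.p6. Alternatives were other pseudocounts (0.1 and 5), a mean of at least 5, rescaled columns, quantile normalization, weights for library quality, the replicate number as a block, and fits without single libraries or the libraries that stood apart.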

Additional observations from a re-analysis of the deposited data

Results flagged for a closer look

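Of 40 sets of values from groups of 4 or 5 libraries that were examined for a library far from the others, 3 had one. Chance alone gives about 1 in 20, so 3 of 40 is near that rate. The sets come from the same libraries and are not independent, so the rate is only a guide. All 3 were in p53mut replicate 4 in DMSO, which was above the other 4 p53mut libraries by most of the range of the group. Anln was 14.4 there against 3.5 to 6.4 in the others, Birc5 was 10.8 against 3.6 to 5.4, and Cdc20 was 13.8 against 5.2 to 7.1. The same library had the highest p53mut value for 42 of the 50 mitotic genes, a B-cell marker sum of 4588 and a T-cell marker sum of 267.4.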

How the results depend on the processing

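The median difference between genotypes stayed below 0 under every alternative run, from -1.87 to -1.07 in DMSO and from -2.26 to -1.02 in ibrutinib when single libraries were left out. With sample quality weights, 4 genes in DMSO (Aspm, Aurkb, Ccnb2 and Racgap1) and 1 in ibrutinib (Aspm) had an adjusted p under 0.05, against none otherwise. The number lower at an unadjusted p under 0.05 in DMSO, 34, was 5 without the Lyz2-rich library, 6 without the p53mut libraries poor in B-cell markers, 1 without both and 15 with Xist above Ddx3y, and ran from 5 to 41 without single libraries (5 without TCL1 replicate 2, 10 without TCL1 replicate 4, 21 without p53mut replicate 1 or 2). In ibrutinib, 38 became 20 without both kinds and ran from 25 (without p53mut replicate 5) to 47. The genotype fits did not take the replicate numbers to pair the libraries, since deviations of same-numbered libraries correlated between -0.17 and 0.25 across genotypes. Across treatments such deviations correlated at 0.71 to 0.84 in 5 pairs and at -0.10 for p53mut replicate 3. The main interaction fit left this dependence out. With the replicate block the counts were 5 in DMSO and 22 in ibrutinib and the interaction median -0.11. The interaction median of -0.27 became 0.0016 with a pseudocount of 5, 0.0276 with weights and 0.0466 without the Lyz2-rich libraries, and ran from -0.86 to 0.43 without single libraries (0.20 without TCL1 replicate 3 in DMSO, 0.43 without TCL1 replicate 1 in ibrutinib). On log2 values the exact permutation p was 0.0536 for Cenpe, Mki67 and Top2a in DMSO and 0.0571 for Racgap1 in ibrutinib. Smc4 in DMSO reversed to -0.31 with weights, from -0.0126 (without p53mut replicate 2) to 0.97 without single libraries, -0.76 without the libraries poor in B-cell markers, -0.62 without both kinds and -0.78 with Xist above Ddx3y, and Foxm1 to 0.0890 without both. In ibrutinib Kif22 reversed to 0.12 with weights, 0.37 without the Lyz2-rich library (-1.05 to 0.37 without single libraries) and 0.40 without both, and Mad2l1 to 0.0705 (-0.50 to 0.0705) and 0.0061. The cause of these changes was not tested. Sums without Smc4, a choice made after seeing the data, were 637.7 and 652.8 in p53mut replicates 1 and 2 in DMSO. In ibrutinib they were 354.3 and 333 in p53mut replicates 1 and 3. With Smc4 kept, p53mut replicate 1 in ibrutinib summed to 1493.6. That sum became 2025.9 when its share of the column was scaled to the mean column sum of the table. The fit restricted by Xist was not run in ibrutinib, where p53mut keeps 1 library. Depth is unknown, and the number of libraries limits the precision.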
